A study of Mus musculus with 4 samples.

Results

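Glp1r was followed through single T cells sorted from mouse tumors, as 1 row of the 32285 genes in the RNA count matrices. A cell was called Glp1r-positive when it held at least 1 unique molecular identifier (UMI, a tag that marks 1 captured RNA molecule) of the gene. In all, 2057 of 38860 called cells were positive, with 3770 Glp1r UMIs, and 843 of the 18293 cells kept after filtering, with 1449 UMIs. Of these 843 cells, 526 held 1 UMI, 165 held 2 and 152 held 3 or more, up to a maximum of 9. Of the other positive cells, 812 were over the limit of 3000 detected genes, 198 over the mitochondrial limit alone and 204 were removed as doublets. The gene was chosen because its detection differed between cell classes and between groups, so its own levels are given as a description with counting intervals and carry no test.

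The T cells came from subcutaneous tumors of 105K cells, a Tsc2-deficient mouse kidney tumor line, grown in wild-type C57BL/6J mice; the study's methods give six-week-old males for its flank injections. In the control group (sh-NC) the tumor cells carried a non-targeting short hairpin RNA. In the other group, sh-B7-H3 (1), here called knockdown, they carried a hairpin against Cd276, which encodes the immune checkpoint protein B7-H3. Both lines were mixed pools of transduced tumor cells and not clones, the hairpins were in the tumor cells and not in the hosts, and live CD3+ cells were sorted from 80 pooled tumors per group. Each group had 2 libraries, which the labels number as replicates. The study describes them as independent samples made from the pooled tumors and as biological replicates, and does not give the number of tumors in each. The p-values for knockdown against control measure the spread between these libraries of pooled tumors. Those for Glp1r-positive against negative cells measure how the difference within a library varied from library to library. Neither measures the spread between single mice.

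The libraries held 12112 and 10589 called cells in the control group and 7030 and 9129 in the knockdown group, with 79224898 to 132820909 RNA UMIs each. After filtering, 6429 and 5230 control cells and 2933 and 3701 knockdown cells remained, with medians of 7815, 8305, 6334 and 6456 UMIs per cell. Cd276 gave 0 or 1 UMI per library, so in sorted T cells it did not check the knockdown. Pairs of libraries shared 17 to 35 cell barcodes.

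Glp1r encodes the receptor for glucagon-like peptide 1, an incretin hormone that the gut releases after a meal. The receptor belongs to class B of the G protein-coupled receptors, couples to the stimulatory G protein Gs and raises cyclic AMP (cAMP), and it is best known on pancreatic beta cells and as a drug target in diabetes and obesity. It has also been described on intestinal intraepithelial lymphocytes. In T cells, cAMP made after Gs-coupled receptors are engaged acts through protein kinase A and CREB-family factors and is broken down by phosphodiesterases.

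In GRCm38 with the GENCODE M21 annotation, Glp1r (ENSMUSG00000024027) lies on the plus strand of chromosome 17 from 30901817 to 30940791. Its coding transcript has 13 exons and 5811 bases, of which 1389 are coding, and its last exon, from 30936265 to 30940791, is mostly 3′ untranslated sequence (from 30936430). The libraries were made with 3′ chemistry, which counts molecules near this end. The noncoding gene AC165951.1 overlaps this end on the opposite strand (30920338 to 30963220) and was at 0 to 0.941 CPM (UMIs of a gene among all RNA UMIs of the summed cells, on the counts-per-million scale) in CD4 effector cells, so few counts of that gene lay beside those of Glp1r.

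The 200 bases before the annotated start, chr17:30901617-30901816 on the plus strand (GRCm38, RefSeq sequence table), are shown because the gene was nearly confined to effector classes. Capitals mark the GC box, a binding motif of Sp-family factors.
Glp1r upstream window: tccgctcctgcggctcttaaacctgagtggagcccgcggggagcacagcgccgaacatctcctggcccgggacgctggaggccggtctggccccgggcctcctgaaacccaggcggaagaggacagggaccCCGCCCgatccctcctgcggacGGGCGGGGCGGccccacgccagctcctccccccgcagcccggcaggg
This window was 75% G or C. It held 3 matches to the GC box GGGCGG, 2 on the plus strand that share 1 base and 1 on the minus strand. Of all 32851 promoter windows of this length, 24.6% held at least 1. Those windows were the first 200 bases of each promoter sequence in the table, which end short of the RefSeq start. For Glp1r the RefSeq start is 30901867, beyond its annotated start. None of the other motifs searched, on both strands, was in the window. These were the AP-1 motif TGANTCA (in 5.57% of windows), the core of the cAMP response element, TGACG (12.7%), the NR4A motif AAGGTCA (3.36%), the RUNX motif TGTGGT (11.6%), the T-box motif GGTGTGA (2.71%) and the NFAT core TTTCC (48.5%).

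Cells were classed by RNA UMIs. Lineage came from Cd8a, Cd8b1, Cd4 and Foxp3 UMIs, and a cell was effector or resting by whether a list of effector genes (such as Ifng, Ccl4 and Pdcd1) or of resting genes (such as Ccr7 and Lef1) gave more UMIs. The summed effector genes of CD4 effector cells were at 30620 to 37981 CPM and the resting genes at 118 to 251 CPM. In CD4 resting cells these were 90.8 to 351 and 2965 to 3486 CPM. T cell receptor and CD3 chain genes summed to 10577 to 11686 CPM in CD4 effector cells. All of these lists were used to call the classes, the chain genes by setting T cells apart from other cells. The match of the label with these markers was therefore built in, and their levels between effector and resting cells are no result.

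Glp1r was highest in CD4 effector cells. Its level there was 59.6 CPM (exact Poisson interval 46.9 to 74.5) and 72.7 CPM (58.3 to 89.7) in the control libraries, and 115 CPM (104 to 128) and 90.1 CPM (80.8 to 100) in the knockdown libraries. The gene was detected in 36 of 198 and 38 of 176 control cells and in 195 of 479 and 182 of 573 knockdown cells, which is 18.2 and 21.6% against 40.7 and 31.8%. Both knockdown libraries were above both control libraries, by the level and by the share of cells. The intervals of the second control and the second knockdown library overlapped, however, both for the level and for the share (15.8 to 28.4 and 28.0 to 35.7%). Median depths were close, at 6029 and 6613 UMIs per control cell and 6500 and 6387 UMIs per knockdown cell. These intervals and those that follow are 95% intervals and cover counting error only.

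CD8 effector cells held Glp1r at a lower level than CD4 effector cells did in every library. It was at 14.5 CPM (10.6 to 19.4) and 16.0 CPM (12.1 to 20.7) in the control libraries and at 36.9 CPM (31.6 to 42.8) and 34.0 CPM (29.4 to 39.1) in the knockdown libraries. It was detected in 34 of 447, 37 of 494, 110 of 741 and 127 of 923 cells (7.61, 7.49, 14.8 and 13.8%), at medians of 6186, 6296.5, 5904 and 5917 UMIs. Again the groups did not overlap, and within each library the intervals of the CD4 and CD8 effector classes did not overlap either.

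Resting cells were almost without the gene although they were sequenced more deeply. CD4 resting cells held 2, 0, 3 and 8 Glp1r UMIs in 1655 and 1331 control and 399 and 506 knockdown cells, or 0.154, 0, 1.05 and 2.13 CPM, at medians of 6971 to 8092 UMIs. CD8 resting cells held 0, 1, 1 and 3 UMIs in 2271, 1850, 361 and 527 cells, or 0, 0.0555, 0.304 and 0.609 CPM, at medians of 8812 to 9326.5 UMIs. The share of CD8 resting cells with a UMI, 0 to 0.569%, was taken as background. The 2 resting classes had overlapping intervals in each library.

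Foxp3 marks regulatory T cells. Effector Foxp3 cells held 0 UMIs in 89 and 93 control cells, which by a limit of 3 counts, in place of the exact interval, allows a share of cells with a UMI of up to 3.37 and 3.23%, and in the knockdown libraries 4 of 106 and 6 of 120 cells were positive (3.77 and 5.00%; 11.1 and 22.9 CPM). In Foxp3 resting cells, 1 of 315, 0 of 241, 1 of 128 and 2 of 122 cells were positive. A difference between effector and resting Foxp3 cells was not detectable in the control libraries at this depth, and in the knockdown libraries their CPM intervals overlapped in the first and not in the second. The CPM interval takes UMIs as independent, however, and in the second knockdown library 1 effector Foxp3 cell held 7 of the 16 UMIs. Counted by cells, the intervals overlapped there too (1.86 to 10.6% for effector and 0.199 to 5.80% for resting Foxp3 cells), so the difference was not resolved. In every library the upper bound for effector Foxp3 cells, at most 37.2 CPM, was below the lower bound for CD4 effector cells, while in the second knockdown library it overlapped the interval of CD8 effector cells.

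The remaining classes were at low levels. Cells with both Cd4 and Cd8 UMIs were at 0, 1.82, 19.0 and 22.0 CPM, in the range of effector Foxp3 cells, and cells with neither were at 0, 0.285, 2.97 and 4.44 CPM. Cells called non-T, with more UMIs of myeloid, B cell and stroma markers than of T cell receptor and CD3 chains, were at 0, 0, 2.63 and 11.9 CPM. The order of the 4-library means was CD4 effector (84.4 CPM), CD8 effector (25.4), both (10.7), Foxp3 effector (8.50), non-T (3.63), neither (1.92), Foxp3 resting (1.04), CD4 resting (0.832) and CD8 resting (0.242). CD4 effector cells lay above their neighbour in every library. CD8 effector cells and cells with both lineage genes had overlapping intervals in the knockdown libraries, and neighbours further down overlapped across the libraries.

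**Figure D1:**
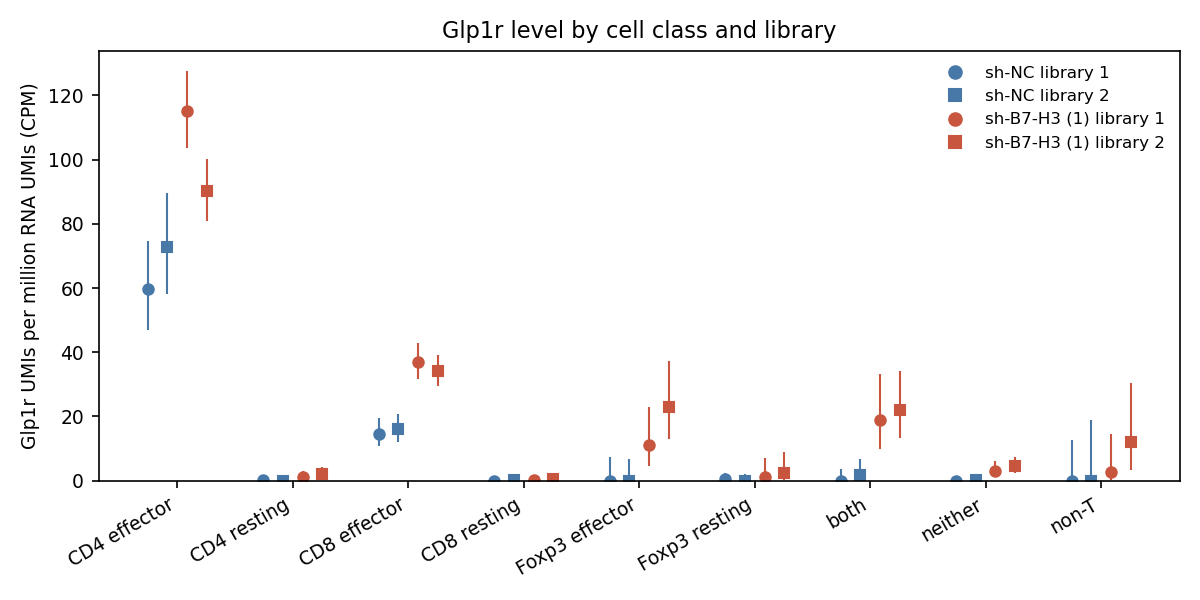
Glp1r level in CPM of RNA UMIs (y axis) in each of 9 cell classes (x axis), with 1 point per library and exact 95% Poisson intervals, control and knockdown libraries in separate colors. CD4 effector cells lie at 59.6 to 115 CPM and CD8 effector cells at 14.5 to 36.9 CPM, while CD4 and CD8 resting cells lie at 0 to 2.13 CPM.

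Free RNA was measured in barcodes of up to 100 UMIs. Glp1r there was at 3.52 and 3.54 CPM in the control libraries (22 and 24 UMIs) and at 23.3 and 18.7 CPM in the knockdown libraries (65 and 54 UMIs), so it was higher in the group whose effector cells were more numerous. The levels of Foxp3 effector cells and of cells with both lineage genes in the knockdown libraries lay near these values, whereas CD4 and CD8 resting cells of the same libraries were at 0.304 to 2.13 CPM. Its part in the low levels was not tested.

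Detection was concentrated at the effector end of the class score. Among CD4 cells in which effector genes gave 80 to 100% of the effector and resting UMIs, 36 of 180, 38 of 160, 194 of 461 and 182 of 542 cells were positive (20.0, 23.8, 42.1 and 33.6%). Of all CD4 cells between 20 and 80%, 1 cell was positive, in the first knockdown library, where the step from 60 to 80% held 14 cells. Among CD8 cells, 9.16, 8.89, 15.6 and 14.4% were positive in the step from 80 to 100%. Below 20%, 0.124, 0, 0.870 and 1.88% of CD4 cells were positive. Since few cells lay between 40 and 80%, the shape of the rise was not resolved.

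**Figure D2:**
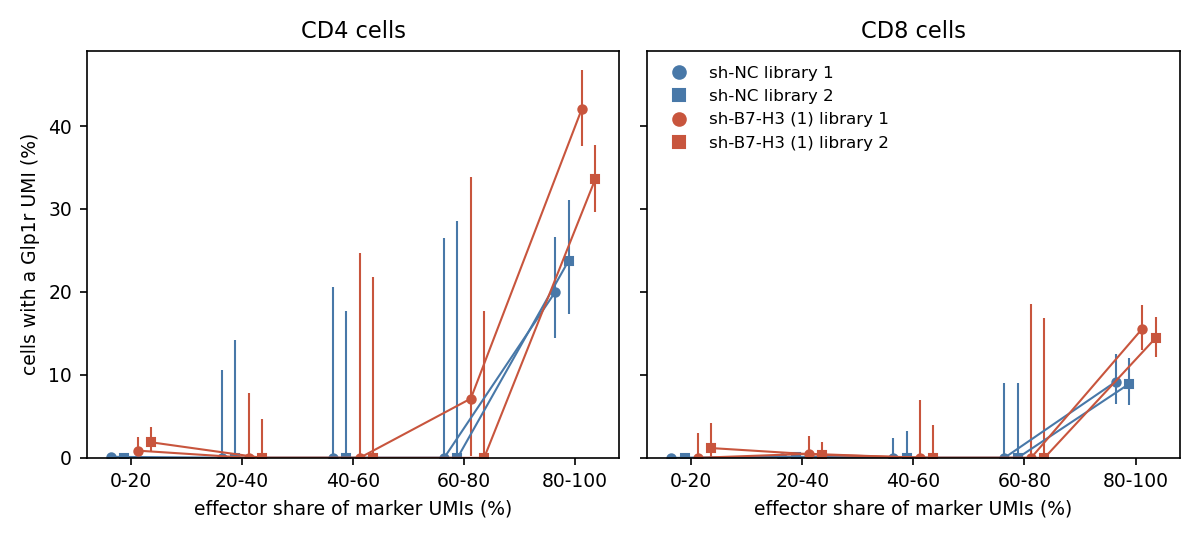
Share of cells with a Glp1r UMI (y axis, %) by the effector share of a cell's effector and resting gene UMIs in steps of 20% (x axis), for CD4 and CD8 cells, with 1 line per library and exact 95% intervals. In CD4 cells the share is 20.0 to 42.1% in the last step and at most 1.88% in the first.

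Over all kept cells, Glp1r was at 2.41 and 3.34 CPM in control libraries against 30.4 and 24.7 CPM in knockdown libraries, a 9.59-fold ratio of means. Within the CD4 and CD8 effector classes the ratio was smaller. In CD4 effector cells the means were 66.1 ± 9.32 and 103 ± 17.7 CPM (SD, n = 2 each), a ratio of 1.55, and in CD8 effector cells 15.3 ± 1.04 and 35.4 ± 2.04 CPM, a ratio of 2.32. The other classes held at most 2 Glp1r UMIs each in the control group, so no ratio is given for them. Their means were also higher in the knockdown group. Cells with both lineage genes, for instance, were at 0.911 CPM in control and 20.5 CPM in knockdown libraries, and CD4 resting cells at 0.0771 and 1.59 CPM. The makeup of the sample differed as well: effector cells were 11.4 and 14.6% of control cells and 45.2 and 43.7% of knockdown cells. They held 97.6, 96.6, 95.6 and 91.5% of the Glp1r UMIs.

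Exchanging levels and class shares between the groups separates these parts arithmetically. Control levels at control shares gave 2.86 CPM, and at knockdown shares they gave 14.5 CPM. Knockdown levels gave 7.09 CPM at control shares and 27.5 CPM at their own. The share of effector cells thus moved the total more than the level within the classes did.

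By the share of positive cells the ratios of knockdown to control were 1.82 in CD4 and 1.89 in CD8 effector cells. After thinning every cell to 3000 UMIs, shares were 12.9, 14.9, 23.2 and 17.2% in CD4 effector cells and 3.91, 4.12, 7.18 and 7.70% in CD8 effector cells, with ratios of 1.46 and 1.86. Positive CD4 effector cells held 2.11 and 2.29 Glp1r UMIs each in control libraries against 1.88 and 1.85 in knockdown libraries. Positive CD8 effector cells held 1.35 and 1.54 against 1.57 and 1.57. The CD4 effector cells of the knockdown libraries thus had more positive cells and not more UMIs per positive cell.

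Several measures moved with the group beside Glp1r. Myeloid marker genes summed to 57.7 to 67.4 CPM in control and 86.6 to 105 CPM in knockdown CD4 effector cells, and to 51.8 to 65.9 against 114 to 130 CPM in CD8 effector cells. The effector genes went opposite ways in the lineages, at 37037 to 37981 CPM in control and 30620 to 33917 CPM in knockdown CD4 effector cells and at 21509 to 21608 against 30276 to 30513 CPM in CD8 effector cells. The resting genes summed to 186 to 251 against 118 to 154 CPM in CD4 effector and to 680 to 704 against 229 to 253 CPM in CD8 effector cells. A list of regulatory T cell genes summed to 1401 to 1436 against 966 to 1027 CPM in CD4 effector cells, and to 321 to 366 against 443 to 446 CPM in CD8 effector cells. Natural killer cell genes, of which 2 to 4 of 6 were at 0, summed to 210 to 214 against 233 to 250 CPM in CD4 effector and to 152 to 154 against 195 to 213 CPM in CD8 effector cells. Only 2 of the 6 passed the low-count filter in each class. The list includes Klre1 and Eomes, the latter also on the effector list, so its sums are not specific to natural killer cells. Gamma-delta T cell genes, of which 1 of 5 was at 0, summed to 217 to 229 against 277 to 281 CPM in CD8 effector cells, and in CD4 effector cells the groups overlapped. B cell genes summed to 151 to 173 against 120 to 140 CPM in CD4 effector and to 162 to 176 against 191 to 192 CPM in CD8 effector cells. Tumor and stroma genes summed to 11.7 to 18.8 against 22.3 to 22.5 CPM in CD4 effector and to 20.8 to 25.3 against 14.7 to 19.1 CPM in CD8 effector cells. Proliferation genes summed to 106 to 127 against 88.8 to 95.7 CPM in CD4 effector cells, and in CD8 effector cells the groups overlapped. Their part in the Glp1r values was not tested.

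Genes whose level followed Glp1r over the 36 sums of 9 classes in 4 libraries were ranked by Pearson correlation of log2(CPM + 5) among the 4602 genes whose mean reached 20 CPM. The sums share libraries, and the classes were called partly by some of these genes, so the values are a description. The leading genes were Sub1 (r = 0.965), a transcriptional coactivator, Adgrg1 (0.941), the adhesion receptor GPR56 of cytotoxic lymphocytes, Ifng (0.936), the cytokine interferon gamma, and Nr4a2 (0.929), a nuclear receptor induced by T cell receptor signaling. Cd200r4 (0.915), Chn2 (0.912), Abcb9 (0.906), Dapk2 (0.904), Padi2 (0.898) and Trps1 (0.894) followed. Cd200r4 is a member of the CD200 receptor family, Chn2 a Rac GTPase-activating protein, Abcb9 a lysosomal peptide transporter, Dapk2 a kinase, Padi2 an enzyme that converts arginine to citrulline and Trps1 a GATA-type repressor.

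Each of these 10 genes had its highest class mean in CD4 effector cells. Ifng had means of 426 CPM in CD4 effector, 156 in CD8 effector and 2.61 in CD4 resting cells, and Nr4a2 had 204, 52.7 and 1.72 CPM. Dapk2 was nearly level between the effector classes, at 77.6 and 74.5 CPM, with 0.415 CPM in CD4 resting cells. Sub1 was less class-bound, with 1084 CPM in CD4 effector, 793 in CD8 effector and 394 in CD4 resting cells. Of the 10 genes, 9 had a window of the first 200 bases of their promoter sequence, which ended short of the RefSeq start. Of these windows, 5 held the GC box (24.6% of all windows), 7 the NFAT core (48.5%) and 4 the core of the cAMP response element (12.7%). The AP-1 (5.57%), RUNX (11.6%) and T-box (2.71%) motifs were in 1 window each and the NR4A motif (3.36%) was in 0 of 9, and with so few windows nothing is read from these counts. With Spearman correlation, 5 of the 10 remained among the leading 10 genes.

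**Figure D3:**
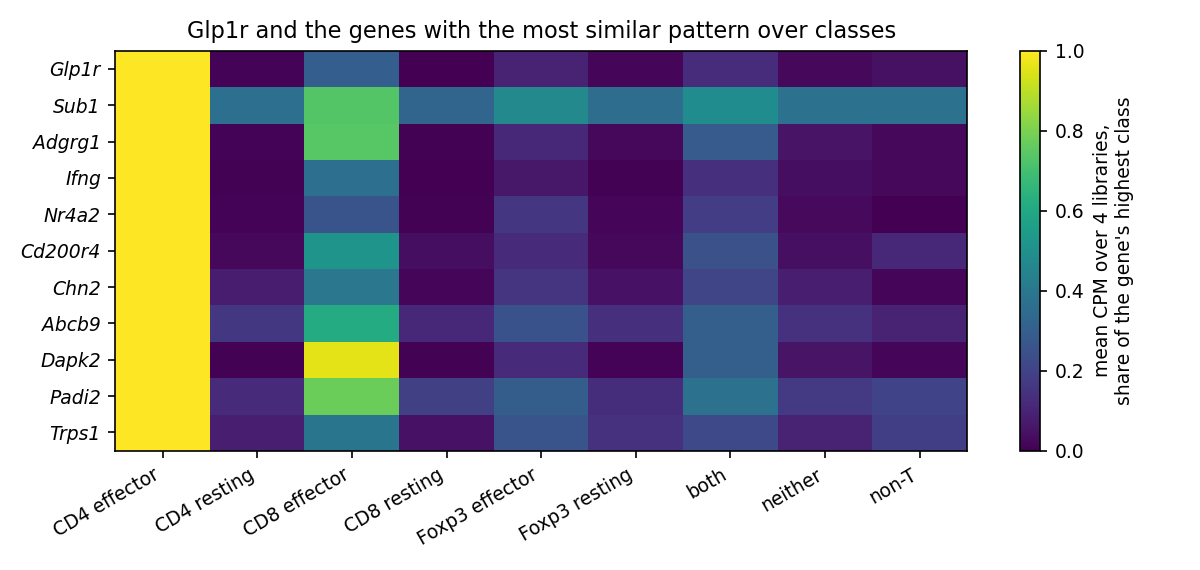
Heat map of Glp1r and the 10 genes most like it (rows) over 9 cell classes (columns), each cell the mean level of 4 libraries as a share of that gene's highest class mean. All 11 genes have their highest mean in CD4 effector cells, and Sub1 keeps the most signal in the resting classes.

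Around Glp1r on chromosome 17, the nearest 5 annotated genes on each side were compared over the same classes. Umodl1, AC165951.6 and AC165951.3 were at 0 CPM in the effector and resting CD4 and CD8 classes. Dnah8, which encodes a dynein heavy chain, was at 6.69 to 14.2 CPM in CD4 effector and 25.4 to 35.1 CPM in CD4 resting cells. Abcg1, a cholesterol exporter that begins 116884 bases beyond the end of Glp1r, was at 71.3 to 115 CPM in CD4 effector and 44.3 to 55.8 CPM in CD4 resting cells, and at 71.0 to 93.1 against 40.4 to 51.9 CPM in the CD8 classes.

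Within 1 class, Glp1r-positive cells were compared with Glp1r-negative cells by summing counts per library and fitting edgeR's quasi-likelihood model with library as a block. A gene was called at an adjusted p under 0.05, Glp1r itself being left out. Among CD4 effector cells (451 positive, 975 negative), 468 of 7748 genes were called (6.04%), 190 higher (2.45%) and 278 lower (3.59%) in positive cells. Among CD8 effector cells (308 positive, 2297 negative), 321 of 8338 genes were called (3.85%), 142 higher (1.7%) and 179 lower (2.15%).

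Positive cells were deeper than negative cells of the same library, so the counts of calls were also made in a common range of depth. Medians were 7140 to 8164 UMIs in positive and 5741.5 to 6088 in negative CD4 effector cells, and 6599 to 6916 against 5690 to 6200 in CD8 effector cells. Restricted to cells of 5000 to 12000 UMIs, 285 and 242 genes were called, of which 281 and 215 were among those above. Leaving out 1 library lowered the CD4 count to 289 without the first and 283 without the second knockdown library, and the CD8 count to 202 without the first control and 206 without the first knockdown library. The CD8 split turned when a control library was left out, to 108 higher and 94 lower without the first and 136 and 132 without the second.

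The 8 named genes higher in CD4 effector cells with Glp1r included a pair of membrane proteins. Tmem273, a gene for a membrane protein, was at 97.9, 119, 118 and 120 CPM in positive and 26.0, 28.2, 66.5 and 53.5 CPM in negative cells of the 4 libraries (log2 fold change 1.20, SE 0.15, edgeR adjusted p = 1.20e-06). Cd244a, the SLAM-family receptor 2B4 of cytotoxic and exhausted lymphocytes, was at 145, 116, 135 and 126 against 43.0, 46.3, 65.4 and 66.3 CPM (1.11, SE 0.13, edgeR adjusted p = 3.48e-07). In both genes every positive sum lay above every negative sum.

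Further named genes were higher with Glp1r in CD4 effector cells. Gsta4, a glutathione transferase, was higher by 1.18 log2 units, Bcl2l11, the pro-apoptotic BIM, by 0.95, Prr5l, a protein that binds the mTORC2 kinase complex, by 0.94, and Itih5 by 0.93. Spp1, which encodes osteopontin, was higher by 1.15 and was detected in 29.7% of positive and 13.8% of negative cells. Its positive sums ranged from 119 CPM in the second control library to 566 CPM in the first. Gzma, granzyme A, was called higher by 2.10, but only 16 of 451 positive and 19 of 975 negative cells held it, and 5 cells held 85.4% of its 158 UMIs in positive cells.

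The 8 named genes lower in CD4 effector cells with Glp1r began with a pair of chemokines. Ccl1, a chemokine for CCR8, had 1 UMI in positive cells against 1232 UMIs in 28 negative cells, a ratio of 0.00143 with a counting interval of 3.62e-05 to 0.0080 (edgeR adjusted p = 4.27e-18). In negative cells 5 cells held 92.0% of the UMIs. The interval takes UMIs as independent and is therefore too narrow here. Counted by cells, Ccl1 was in 1 of 451 positive and 28 of 975 negative cells. Xcl1, a chemokine for XCR1, had 8 UMIs in 7 positive and 1099 UMIs in 53 negative cells. By library, controls first, it was at 0, 0, 2.10 and 3.61 CPM in positive and 420, 488, 18.8 and 90.9 CPM in negative cells, and Ccl1 was at 0, 0, 0 and 0.721 against 510, 346, 18.2 and 163 CPM, so in negative cells both genes were higher in the control libraries, and the ratio of Ccl1 pools all 4 libraries. The reads of both genes were thus in few cells, unlike those of the genes that follow.

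Ly6a, which encodes the surface protein Sca-1, was at 76.1, 25.8, 8.41 and 16.6 CPM in positive and 579, 455, 188 and 154 CPM in negative cells (log2 fold change -3.61, SE 0.16, edgeR adjusted p = 1.79e-16). It was detected in 7.32% of positive and 34.3% of negative cells. Tnfrsf4, the costimulatory receptor OX40, was lower by 2.75 log2 units (edgeR adjusted p = 8.34e-16) and was in 14.6 and 36.2% of cells. In both genes every positive sum lay below every negative sum. Maf, a transcription factor of helper T cells that make interleukin 10, was at 91.1 to 116 against 298 to 518 CPM. Gzmb (granzyme B), Odc1 (ornithine decarboxylase) and Capg (an actin-capping protein) fell by 1.94, 1.60 and 1.57 log2 units. Gzmb is on the effector list that called the classes.

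Of the 8 genes named as higher with Glp1r in CD8 effector cells, Tnfrsf9 had the largest increase, while Gsta4, named in CD4 effector cells, was higher by 2.00 in CD8 effector cells (edgeR adjusted p = 7.12e-08). Tnfrsf9, the costimulatory receptor 4-1BB, was at 196, 145, 213 and 244 CPM in positive and 60.6, 38.7, 62.0 and 47.6 CPM in negative cells (log2 fold change 1.88, SE 0.12, edgeR adjusted p = 1.15e-09). It was detected in 46.4% of positive and 14.3% of negative cells, and the sums did not overlap. The receptors Klre1 and Klrc1, the latter encoding NKG2A, were higher by 1.46 and 1.24, Cd200r4 and Cd200r1, receptors of the CD200 family, by 1.35 and 1.27, and Ccrl2, a receptor that binds chemerin, by 1.47. Nr4a2 was higher by 1.53 and Ccl3, an inflammatory chemokine on the effector list that called the classes, by 1.38. Positive sums of Ccl3 ran from 562 to 1427 CPM and negative sums from 201 to 586 CPM, which overlapped.

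Of the named genes lower in CD8 effector cells with Glp1r, Ly6c2 had the largest difference. Ly6c2, which encodes part of Ly-6C, was at 0, 35.2, 6.23 and 13.1 CPM in positive and 538, 575, 156 and 140 CPM in negative CD8 effector cells (log2 fold change -4.46, SE 0.23, edgeR adjusted p = 7.54e-12), and was detected in 17 of 308 and 477 of 2297 cells. Il7r, the interleukin 7 receptor, fell by 2.96 and Klf2, a factor that keeps T cells in circulation, fell by 2.44 log2 units. Both are on the resting list that called the classes, so their differences are not independent of that calling. Ly6a was lower here too, by 1.81, at 37.2 to 183 against 180 to 331 CPM, and its sums overlapped across groups but not within a library. Ifit3, an interferon-induced gene, Klk8, a serine protease, Dnajc15, a mitochondrial chaperone, and Rgs10, a regulator of G protein signaling, fell by 1.70, 1.46, 1.21 and 1.17 log2 units.

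**Figure D4:**
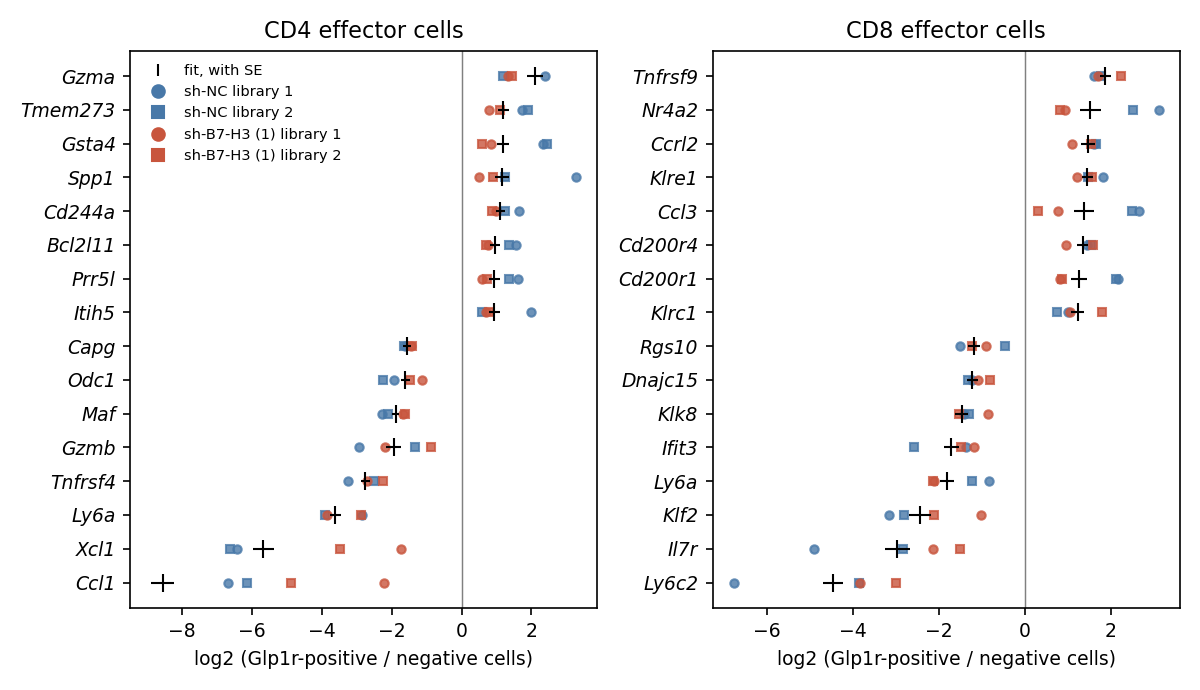
Log2 ratio of CPM in Glp1r-positive over Glp1r-negative cells (x axis) for the 16 named genes of each class (rows), CD4 effector cells on the left and CD8 effector cells on the right, with 1 colored point per library and the fitted value with its SE in black. The naming rule required all 4 libraries on the same side of 0, and library points and fitted values part where a gene has few UMIs, as for Ccl1, Gzma and Ly6c2.

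The same named gene did not always move the same way in both lineages. Of the 8 named genes higher with Glp1r in CD4 effector cells, 7 were also called higher in CD8 effector cells and Gzma was called lower, by 0.85. Among the 7, Spp1 was in only 27 of 308 positive and 43 of 2297 negative CD8 effector cells. In the first control library it was not higher (0 against 1.02 CPM). In CD8 effector cells Gzma was in 10 of 308 positive and 72 of 2297 negative cells (3.25 and 3.13%), and 5 cells held 94.3% of its 88 UMIs in positive cells. Of the 8 lower in CD4 cells, 7 were tested in CD8 cells, where Ly6a was lower and Capg higher (0.75). Of the 8 higher in CD8 cells, 4 were called higher in CD4 cells, and of the 8 lower in CD8 cells, 7 were called lower in CD4 cells. Over all genes, 2.45% were called higher and 3.59% lower in CD4 cells, and 1.7 and 2.15% in CD8 cells. Among 7604 genes tested in both lineages, 61 were called higher in both (36.1% of the 169 called higher in CD4 and 43.3% of the 141 called higher in CD8 cells) and 64 lower in both (24.2% of 264 and 40.5% of 158). In opposite directions, 1 gene was higher in CD4 and lower in CD8 cells, and 8 were lower in CD4 and higher in CD8 cells.

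Of the 10 genes most like Glp1r over classes, 6 were called higher in positive CD4 effector cells and 4 in positive CD8 effector cells. Over all genes, 2.45 and 1.7% were called higher. The 10 genes were picked from the same cells, so these counts are a description. Nr4a2, Chn2 and Cd200r4 were higher in both, by 0.87, 0.89 and 0.73 in CD4 cells and by 1.53, 0.59 and 1.35 in CD8 cells. Padi2 (0.74), Dapk2 (0.45) and Adgrg1 (0.42) were called higher in CD4 cells. Ifng was called lower in positive CD4 cells (-0.47) and higher in positive CD8 cells (0.52), and Sub1 was called lower in CD4 cells (-0.33). A gene that followed Glp1r over classes was therefore not always higher in the single cells that held it.

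The antibody tags, which count surface protein, gave a second readout of these cells, in CPM of all tag UMIs. Among 197 named tags, 8 were called in CD4 effector cells (4.06%), 3 higher (1.52%) and 5 lower (2.54%) with Glp1r, and 12 in CD8 effector cells (6.09%), 8 higher (4.06%) and 4 lower (2.03%). With RLE scaling the CD4 split was 11 higher and 8 lower. The CD4 count fell to 1 without the first control library, to 0 without the second control library (edgeR; 31 at an unadjusted p under 0.05) and to 1 without the second knockdown library. The CD8 count fell to 3 without the second control library and to 6 without the second knockdown library.

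In CD4 effector cells the tag of CD55, a complement-regulating protein, was at 1700, 1454, 1650 and 1639 in positive and 598, 684, 996 and 998 in negative cells (log2 fold change 1.13, edgeR adjusted p = 0.0194). The tag of CD73, the enzyme that makes adenosine from AMP, was at 1046, 925, 1072 and 989 against 4351, 5418, 2565 and 3514 (-1.79, edgeR adjusted p = 0.0144). Neither tag overlapped between positive and negative sums. The tags of CD4 (0.55) and ENPP1 (0.31) were higher, and those of Sca-1 (-0.95), CD2 (-0.57), CD102 (-0.52) and GITR (-0.35) were lower.

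In CD8 effector cells the tag of CD200R was higher by 1.17, at 10172 to 11190 in positive and 4400 to 6292 in negative cells (edgeR adjusted p = 0.0161). The tag of CD39, an enzyme that degrades extracellular ATP and marks chronically stimulated T cells, was at 64576 to 70003 against 44086 to 48889 (0.68, edgeR adjusted p = 0.0131). The tags of CD43 (0.71), CD55 (0.66) and GITR (0.60) were higher. Ly-6C (-1.15), the scavenger receptor CD36 (-1.22), CD102 (-0.61) and CD49a (-0.22) were lower. Tag and RNA moved the same way for Sca-1 and Ly6a in CD4 cells and for Ly-6C and Ly6c2, CD137 (tag 0.51) and Tnfrsf9, and CD200R and Cd200r1 in CD8 cells. Other pairs did not go together. In CD8 cells Ly6a was called lower and the Sca-1 tag was not called, and the CD39 tag was called higher while its gene Entpd1 was not called.

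Counts of cells show how these genes overlapped; the genes were chosen after their values were seen. Of CD4 effector cells with a Ccl1 or Xcl1 UMI, 0 of 31 control cells and 8 of 43 knockdown cells held Glp1r. Without such cells the positive share was 21.7 ± 2.34% (control) and 36.9 ± 6.40% (knockdown; SD, n = 2). Of CD8 effector cells with a Ly6c2 UMI, 2 of 291 control and 15 of 203 knockdown cells held Glp1r, and without them the shares were 10.6 ± 0.29 and 15.3 ± 1.39%. Of CD8 effector cells with an Il7r UMI, 4 of 231 and 16 of 197 held it. Among CD8 effector cells with a Tnfrsf9 UMI the positive share was 17.7 ± 0.067% in control and 35.0 ± 3.29% in knockdown libraries, against 5.91 ± 0.15 and 8.96 ± 1.42% in cells without. Cells with Tnfrsf9 were deeper, at medians of 7198.5 to 7879.5 against 5558 to 6097.5 UMIs, and scaled to depth Glp1r was at 34.4 ± 6.83 against 11.9 ± 0.65 CPM in control and 84.9 ± 5.29 against 19.6 ± 3.36 CPM in knockdown libraries (SD, n = 2).

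The receptor's own pathway was described from lists of 91 genes besides Glp1r. Of the other class B receptors of the list, 7 of 14 gave 0 UMIs in the kept cells, namely Glp2r, Gcgr, Ghrhr, Adcyap1r1, Crhr1, Crhr2 and Pth2r. Gipr, the receptor for the second incretin, gave 3 UMIs. In CD4 effector cells Vipr2 and Calcrl, the calcitonin receptor-like receptor, passed the filter on low counts and were tested, and Calcrl was not called (0.16 between positive and negative cells, edgeR adjusted p = 0.887). Vipr1 and Vipr2 are the receptors for vasoactive intestinal peptide. Vipr1 was at 1.87 to 3.34 CPM in CD4 effector and 21.7 to 26.9 CPM in CD4 resting cells, while Vipr2 was at 12.5, 20.9, 35.8 and 36.9 CPM in CD4 effector and 0 to 0.532 CPM in CD4 resting cells.

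Vipr2, which like Glp1r couples to Gs, went with Glp1r within both effector classes. Its CD4 effector levels were 36.3, 45.1, 43.4 and 45.4 CPM in positive and 6.00, 12.4, 29.6 and 31.9 CPM in negative cells (log2 fold change 0.79, SE 0.22, edgeR adjusted p = 0.0283). Among CD8 effector cells it was higher by 1.07 (edgeR adjusted p = 0.0218). Among control CD4 effector cells with a Vipr2 UMI, 55.8 ± 8.16% held Glp1r, against 16.5 ± 1.99% of those without, and in the knockdown libraries these were 48.4 ± 4.59 and 33.5 ± 6.66%. The corresponding CD8 shares were 15.0 ± 4.54 and 7.20 ± 0.20% for control and 28.4 ± 7.79 and 13.1 ± 0.067% for knockdown libraries (SD, n = 2). The control share with Vipr2 rests on 6 of 39 cells. CD4 effector cells with Vipr2 were deeper, at medians of 7384 to 8290 against 5953 to 6345 UMIs. CD8 effector cells with Vipr2 were deeper too, at 6908.5 to 7903.5 against 5812 to 6236 UMIs. Scaled to depth, Glp1r was at 156 ± 17.2 CPM with and 55.7 ± 8.58 CPM without Vipr2 in control CD4 effector cells (SD, n = 2). In knockdown CD4 effector cells these were 129 ± 32.0 and 95.6 ± 14.2 CPM (SD, n = 2). In CD8 effector cells they were 29.2 ± 8.29 and 14.5 ± 1.68 CPM for control and 74.3 ± 29.9 and 31.4 ± 1.07 CPM for knockdown libraries (SD, n = 2). The part of depth in the shares was not tested.

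Of the ligands and the protease, Gip, Sct, Vip and Adcyap1 gave 0 UMIs. Gcg, which encodes the precursor of GLP-1, gave 17 UMIs in all and was at 0 and 12.5 CPM in control and 0.628 and 0 CPM in knockdown CD4 effector cells. Dpp4, the protease that inactivates GLP-1, was at 5.65 to 10.2 CPM in CD4 effector and 42.9 to 49.8 CPM in CD8 resting cells.

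Of the accessory genes, Ramp1, which makes the calcitonin receptor-like receptor a receptor for the neuropeptide CGRP, was lower in positive CD4 effector cells. It was at 3.63, 0, 7.71 and 7.21 CPM in positive and 85.0, 105, 64.8 and 49.7 CPM in negative cells (log2 fold change -3.33, SE 0.26, edgeR adjusted p = 1.30e-10), and was detected in 18 of 451 against 170 of 975 cells. Its difference among CD8 effector cells was -0.71 and was not called (edgeR adjusted p = 0.244). In Foxp3 effector cells Ramp1 was at 274 to 354 CPM, above its range in the CD4 and CD8 classes. A list of regulatory T cell genes was also lower in positive CD4 effector cells, with 6 of 8 tested members called lower and 1, Ikzf2, higher, at a list median of -1.37. Over all genes, 3.59% were called lower and the median was 0.0022. Among the members called lower were Tnfrsf4 and Capg, named above, Il2ra (4 UMIs in positive and 114 in negative cells) and Klrg1 (2 and 126). CD4 cells were defined by no Foxp3 UMI, so regulatory T cells whose Foxp3 RNA was not captured could be among them. The part of such cells in the genes and tags that were lower with Glp1r was not tested.

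Of the genes that make, read and break down cAMP, few were called. Adcy2 and Adcy8, which encode adenylyl cyclases, the G protein subunit gene Gnai1 and the phosphodiesterase gene Pde3a gave 0 UMIs. Crem, a cAMP-induced transcription factor, was called higher in positive CD8 effector cells (0.88, edgeR adjusted p = 0.000520); by class it was at 90.9 to 110 CPM in CD4 effector and 7.71 to 11.6 CPM in CD4 resting cells. Pde4a, a cAMP phosphodiesterase, was higher in positive CD4 effector cells by 1.11 (edgeR adjusted p = 0.0121). Among other Gs-coupled receptors, Adrb1, the beta-1 adrenergic receptor, was higher in positive CD4 cells by 0.62 (edgeR adjusted p = 0.00700) and Gpr65, a proton-sensing receptor, in positive CD8 cells by 0.55 (edgeR adjusted p = 0.00166).

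Over the 7 pathway lists, 36 genes were tested in each class. Among CD4 effector cells 3 were called higher and 1 lower, with a median log2 fold change of 0.05 against 0.0022 over all genes. Among CD8 effector cells 3 were called higher, with a median of -0.0022 against 0.0058. As shares of the 36 genes these counts were above the 6.04 and 3.85% called over all genes, but they rest on 4 and 3 genes.

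**Figure D5:**
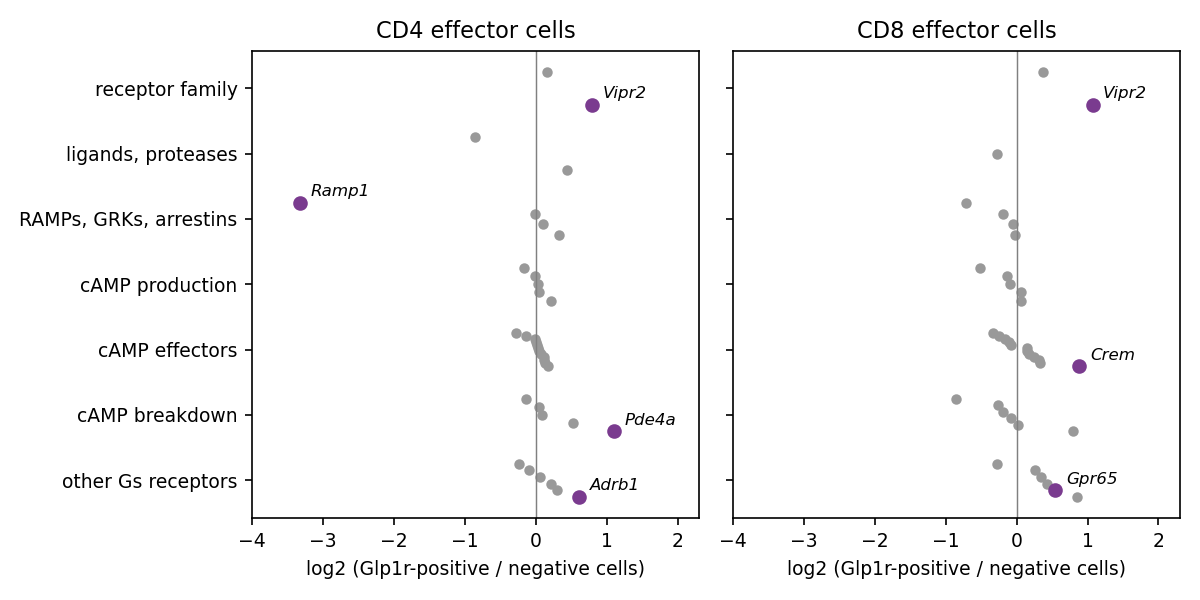
Log2 fold change between Glp1r-positive and Glp1r-negative cells (x axis) of the tested genes of the receptor family and cAMP pathway, grouped by role (rows), for CD4 effector and CD8 effector cells, with called genes in purple and named. Most genes lie near 0, and Ramp1 in CD4 effector cells lies farthest from it, at -3.33.

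The pathway genes were also compared between the groups within each effector class, with a call at an adjusted p under 0.05 and a change of at least 1 log2 unit, and 2 libraries per group. In CD4 effector cells 187 of 9180 genes were called (2.04%), 78 higher (0.85%) and 109 lower (1.19%) with the knockdown, and in CD8 effector cells 234 of 9773 (2.39%), 115 higher (1.18%) and 119 lower (1.22%). The CD4 count fell to 103 without the first knockdown library, and the CD8 count to 155 without the second. Of the pathway genes tested, 2 of 39 were called in CD4 and 1 of 44 in CD8 effector cells.

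Vipr2 was among them in both classes. Its CD4 effector values above gave a log2 fold change of 1.22 (edgeR adjusted p = 1.13e-05). The CD8 effector levels were 7.89 and 5.89 CPM in control and 16.0 and 15.2 CPM in knockdown libraries (1.20, edgeR adjusted p = 0.00084). Calca, which encodes calcitonin and CGRP, was at 7.84 and 12.5 against 38.6 and 19.3 CPM in CD4 effector cells (1.57, edgeR adjusted p = 2.73e-06). Ramp1 in CD4 effector cells was at 67.4 and 77.7 against 39.2 and 34.0 CPM (-0.90, edgeR adjusted p = 4.78e-07), which was under the limit of 1 log2 unit.

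Some genes that went with Glp1r also differed between the groups. Of the 8 named genes lower with Glp1r in CD4 effector cells, 5 were called lower in the knockdown libraries, namely Ccl1 (-2.38), Xcl1 (-3.15), Ly6a (-1.86), Tnfrsf4 (-1.48) and Gzmb (-2.46). Of the 8 higher, Spp1 was called higher (1.5) and Gzma lower (-2.45). Of the 8 lower with Glp1r in CD8 effector cells, Ly6c2 (-2.03), Il7r (-1.69), Klf2 (-1.89) and Klk8 (-1.03) were called lower in the knockdown libraries. The 8 higher with Glp1r in CD8 effector cells differed between the groups by 0.21 to 0.98, each under the limit of 1 log2 unit. Over all genes, 0.85% were called higher and 1.19% lower with the knockdown in CD4 effector cells, and 1.18 and 1.22% in CD8 effector cells. The comparison by Glp1r and the comparison of the groups use the same cells, so these directions are set side by side and no overlap is tested.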

How the data were processed

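Deposited per-cell UMI counts of RNA and antibody tags from 4 10x 3′ libraries were used as they were. The authors aligned reads to mm10 and counted UMIs with Cell Ranger, per the methods and the labels, which also name Seurat 4.0.0; the counts are raw and not normalized. The members and gene lists were chosen with earlier results of these data known.

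Cells were kept with 200 to 3000 genes detected and mitochondrial UMIs of 5% or less. Doublets were called per library from simulated pairs (2 per cell, 2000 variable genes, 30 components, 50 neighbours, scikit-learn 1.9.0) at an Otsu threshold, which removed 14.8 to 19.9% of cells. Of the removed cells, 11.5 to 14.2% held both Cd4 and Cd8 UMIs, against 1.46 to 3.13% of kept cells.

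CD8 cells had at least 3 Cd8a plus Cd8b1 UMIs and no Cd4. CD4 cells had at least 1 Cd4 UMI, Foxp3 cells at least 1 Foxp3 UMI, and both fewer than 3 Cd8 UMIs. Counts were summed per library and class, and edgeR 4.0.16 (R 4.3.3) with TMM scaling, a low-count filter and Benjamini-Hochberg adjustment was run, with DESeq2 1.42.0 as an alternative. The procedure was tested on simulated data. Of 198 tags, 1 without a name was left out and 9 were isotype controls.

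Named genes were the 10 most like Glp1r over classes, and, per effector class, the 8 highest and 8 lowest called genes of 50 CPM or more on average and the 5 highest and 5 lowest called tags, each with 1 sign in all 4 libraries. All called or undetected pathway genes could be named too, and the co-detected genes were picked after their values were seen. Alternatives were other doublet, gene, mitochondrial and class limits, a common depth, at least 2 Glp1r UMIs, other tools, scaling and filters, and each library left out.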

Additional observations from a re-analysis of the deposited data

Results flagged for a closer look

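Gzma was higher in Glp1r-positive CD4 effector cells (log2 fold change 2.10) and lower in Glp1r-positive CD8 effector cells (-0.85), with all libraries of each class on its side. The difference between the classes was not tested, and 5 cells held 85.4% of the 158 Gzma UMIs in Glp1r-positive CD4 effector cells. In CD8 effector cells 5 cells held 94.3% of the 88 Gzma UMIs in positive cells, and 3.25% of positive and 3.13% of negative cells held the gene.

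The GITR tag was lower with Glp1r in CD4 effector cells (-0.35) and higher in CD8 effector cells (0.60), with all libraries of each class on its side. This difference was not tested either.

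Glp1r was also found outside the kept cells. Barcodes of up to 100 UMIs held it at 23.3 and 18.7 CPM in the knockdown libraries, against 3.52 and 3.54 CPM in the control libraries. Of cells over the limit of 3000 detected genes, 22.8 and 18.9% were positive against 1.52 and 2.3%, at medians of 20549 to 23051 UMIs. Of cells removed as doublets, 13.6 and 12.5% were positive against 0.179 and 0.997%. In each of these sets both knockdown libraries were above both control libraries, as in the effector classes.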

How the results depend on the processing

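The Glp1r group ratios and the named genes and tags kept their direction under the alternatives run, while the splits of CD4 tags and CD8 genes into higher and lower turned under some of them. In CD8 effector cells the control level of Glp1r (15.3 CPM) was 13.3 CPM with no doublet removal, 13.9 with no upper gene limit, 18.6 with a margin of 2 times between effector and resting UMIs, and 10.4 with neither doublet removal nor the gene limit, a setting chosen after seeing the data. The knockdown level (35.4 CPM) was 37.5 with the margin and 31.2 with neither. The log2 ratio of the groups there was 1.41 with no doublet removal, 1.42 with no gene limit, 1.02 with the margin, 1.58 with neither and 0.89 by shares of cells thinned to 3000 UMIs. Each library left out in turn, the CD4 effector means ran from 59.6 to 72.7 CPM in control and 90.1 to 115 in knockdown, with log2 ratios of 0.45 to 0.80. The CD8 effector means ran from 14.5 to 16.0 and 34.0 to 36.9, with ratios of 1.15 to 1.29.

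The 468 genes that went with Glp1r in CD4 effector cells became 781 with neither filter, 285 at 5000 to 12000 UMIs and 179 by DESeq2, and the 321 in CD8 effector cells became 484 with no doublet removal, 790 with neither filter, 177 by DESeq2 and 529 with no low-count filter, with which the median log2 fold change of all CD8 genes was -0.14 in place of 0.0058. Leaving out 1 library gave 283 to 346 and 202 to 268, and the CD8 split of 142 higher and 179 lower became 108 and 94 or 136 and 132 without a control library. Of the 16 named genes per class, calls were kept in 189 of 191 CD4 and 191 of 192 CD8 values under other alternatives, and in 64 of 64 values each with a library left out. Tags were less stable. The 8 CD4 tags became 24 with no doublet removal, 16 with the top 10% of scores removed, 13 with no gene limit, 21 with neither filter, 17 with at least 2 Glp1r UMIs, 38 by DESeq2 and 19 with RLE scaling. Their split of 3 higher and 5 lower turned to 9 and 7 with the top 10% of scores removed, 8 and 5 with no gene limit, 7 and 4 with up to 10% mitochondrial UMIs, 12 and 9 with neither filter, 9 and 8 with at least 2 Glp1r UMIs, 22 and 16 by DESeq2 and 11 and 8 with RLE scaling. The 12 CD8 tags became 21 with neither filter, 6 in the common depth range and 26 by DESeq2. Without 1 library there were 0 to 8 and 3 to 8 tags, and 8 of 32 and 19 of 36 tag calls were kept.

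Between groups, the 187 CD4 genes became 49 by DESeq2 and 760 with no fold limit, and the 234 CD8 genes became 88 and 1235. Without 1 library they were 103 to 166 and 155 to 195. In CD8 cells the split of 115 higher and 119 lower genes was 148 and 99 with no doublet removal, 88 and 71 with the margin and 212 and 88 with neither filter, but 29 and 59 by DESeq2 and 141 and 170 with no gene limit. Pathway genes called (2 in CD4 cells) were 1 with no gene limit, 1 with up to 10% mitochondrial UMIs, 1 with neither filter, 1 by DESeq2 and 7 with no fold limit, and 1 to 3 without 1 library. In CD8 cells the 1 pathway gene became 2 with no doublet removal, with the top 10% of scores removed, with the margin, with lineage by tags and with no low-count filter, and 7 with no fold limit. With a replicate block, 176 and 245 genes were called. Deviations of same-numbered libraries correlated at -0.012 and -0.0052, so no shared deviation was seen. With 2 libraries per group each class gives only 1 such correlation, which cannot show whether same-numbered libraries belong together. Of the 10 genes most like Glp1r, 5 remained with Spearman correlation and 7 or 8 with a library left out. The causes of these shifts were not tested.

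Limits came mainly from depth and design. Of 843 positive cells, 526 held 1 Glp1r UMI, so a negative cell is a cell without a detected UMI and not one shown to lack the RNA. In the same way, a CD4 cell without a Foxp3 UMI was not shown to lack Foxp3 RNA. The 2 libraries per group came from pooled tumors, so the spread between single mice was not measured.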

Other observations

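Other lists of T cell genes were compared between Glp1r-positive and Glp1r-negative cells. Over all genes, 2.45% were called higher and 3.59% lower in CD4 effector cells, and 1.7 and 2.15% in CD8 effector cells, and the counts here are to be read beside these shares. Resting genes, which had been used to call the classes, were lower in both. In CD4 effector cells 5 of 9 tested genes were called lower, among them Il7r (-1.85) and Lef1 (-1.37), and in CD8 effector cells 9 of 10, among them Tcf7 (-2.25). The effector genes, used in the same way, differed between the lineages. Of 14 tested, 4 were called higher and 4 lower in CD4 effector cells, and 7 higher and 0 lower in CD8 effector cells. Inhibitory receptor genes were called higher in CD8 effector cells for 4 of 8, namely Cd244a (1.10), Havcr2 (1.02), Lag3 (0.69) and Pdcd1 (0.52), and in CD4 effector cells Cd244a (1.11) and Lag3 (0.40) were higher and Ctla4 (-1.18) lower. Lag3 and Pdcd1 are also on the effector list that called the classes. Factors of exhausted and memory T cells went both ways, with 3 higher and 4 lower of 13 tested in CD4 and 2 higher and 2 lower of 13 in CD8 effector cells. Among them Tox was higher in both classes, by 0.28 and 0.57. Of those called lower, Nr4a1 had 9 UMIs in positive and 98 in negative CD4 effector cells, and Nr4a3 had 10 and 75, unlike Nr4a2, which was higher there. In CD8 effector cells Id3 had 10 UMIs in positive and 493 in negative cells.

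Cytokine genes went in different directions. The counts that follow stand beside 2.45% of all genes called higher and 3.59% lower in CD4 effector cells. In CD8 effector cells these shares were 1.7 and 2.15%. In CD4 effector cells 7 of 11 tested were lower, among them the TNF-family ligands Tnfsf8 (-2.85) and Lta (-2.42) and the chemokine Ccl5 (-0.40), and Spp1 was higher. Il10, which encodes interleukin 10, had 4 UMIs in positive and 160 UMIs in negative cells, and by library, controls first, it was at 0, 0, 0.701 and 2.16 CPM in positive and 47.0, 65.5, 9.09 and 16.6 CPM in negative cells. In CD8 effector cells 4 of 8 were higher, namely Ccl3, Ccl4 (0.95), Ifng and Spp1 (1.75). There Spp1 rests on 57 UMIs in 27 of 308 positive cells, and 5 cells held 45.6% of them. In the first control library it was at 0 CPM in positive and 1.02 CPM in negative cells. Cytolytic genes also went both ways, with 4 higher and 3 lower of 8 tested in CD4 and 1 higher and 1 lower of 8 in CD8 effector cells. Prf1, which encodes perforin, was higher in both classes, by 0.65 and 0.84. Prf1, Ifng, Ccl3, Ccl4 and Ccl5 are on the effector list that called the classes, so their differences are not independent of that calling.

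In CD4 effector cells 2 of 4 tested T cell receptor variable segments were called higher with Glp1r, Trgv2 (1.05) and Trbv2 (0.77), against 2.45% of all genes, and in CD8 effector cells 1 of 6, Trgv2 (0.69), against 1.7%. The gamma chain constant genes Tcrg-C2 (0.83 and 0.59) and Tcrg-C1 (0.49 and 0.99) were higher in both classes, while Trdc, the delta chain constant gene, was lower in CD8 effector cells (-1.78).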
